A study of Rattus norvegicus with 9 samples.

Results

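The genes described here encode the proteins that build peroxisomes and the enzymes and carriers that work in them. They were chosen by name from a list of 47 symbols, of which 44 had a row among the 24496 genes of the liver count table; Pex5, Acaa1a and Scp2 are not analysed here. All 44 passed the filter on low counts and were among the 11924 genes tested. The livers came from 9 female Wistar rats, 1 library per animal, all ovariectomised, all kept on a western diet and all given degarelix, an antagonist of the receptor for gonadotropin-releasing hormone. In 4 rats (the FSH group) an osmotic pump delivered follicle-stimulating hormone (FSH) at 6 µg per kg per day, and in 5 rats (the vehicle group) the pump held vehicle alone. The diet began at 10 weeks of age and ran for 6 weeks before ovariectomy. Food was restricted for 12 days and unrestricted for 7 days afterwards, and tissue was taken at 19 weeks of age after 4 h without food. All animals thus lacked ovaries and received the antagonist, and a single tissue, dose and time were sampled. The comparison asks how the hormone bears on liver transcripts in that state.

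Peroxisomes are small organelles bounded by a single membrane, abundant in hepatocytes, that shorten very-long-chain and branched fatty acids, start the synthesis of ether lipids and hold oxidases whose hydrogen peroxide is broken down by catalase. Their matrix proteins are made in the cytosol and imported by peroxins, the products of the Pex genes, and the organelle grows and divides with the help of the Pex11 proteins. In rodent liver many of the fatty acid enzymes, and Pex11a, are classical targets of the nuclear receptor PPAR-alpha, which responds to fatty acids and to fasting.

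Of the 44 genes, 32 had a higher fitted level with FSH and 12 a lower one, against 50.5% of all genes tested having a fold change above 0. The median log2 fold change, FSH over vehicle, was 0.15 over the 44 genes and 0.00 over all genes tested. None passed the threshold of an adjusted p (false discovery rate, FDR) of 0.05 in edgeR's quasi-likelihood test, in which 0.0335% of all genes passed, 0.0252% higher and 0.00839% lower. At an unadjusted p under 0.05 there were 14 of the 44 (31.8%), 13 higher and 1 lower with FSH, where 11.6% of all genes reached that level, 6.42% on the higher and 5.14% on the lower side. DESeq2's Wald test called 4 of the 44, all higher: Hsdl2, Mlycd, Lonp2 and Pex11a (9.1%, against 1.54% of all genes called in either direction and 0.964% called higher). In limma-voom 0 passed. In 7 genes every FSH library lay above every vehicle library (15.9%, against 2.19% of all genes, or 4.11% in either direction), and in 0 genes did every FSH library lie below them (against 1.92%). Those 7 were the 4 genes just named and Nudt7, Eci2 and Hsd17b4. The genes were chosen with earlier results of these libraries known, so the counts describe them and are no independent test.

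**Figure D1:**
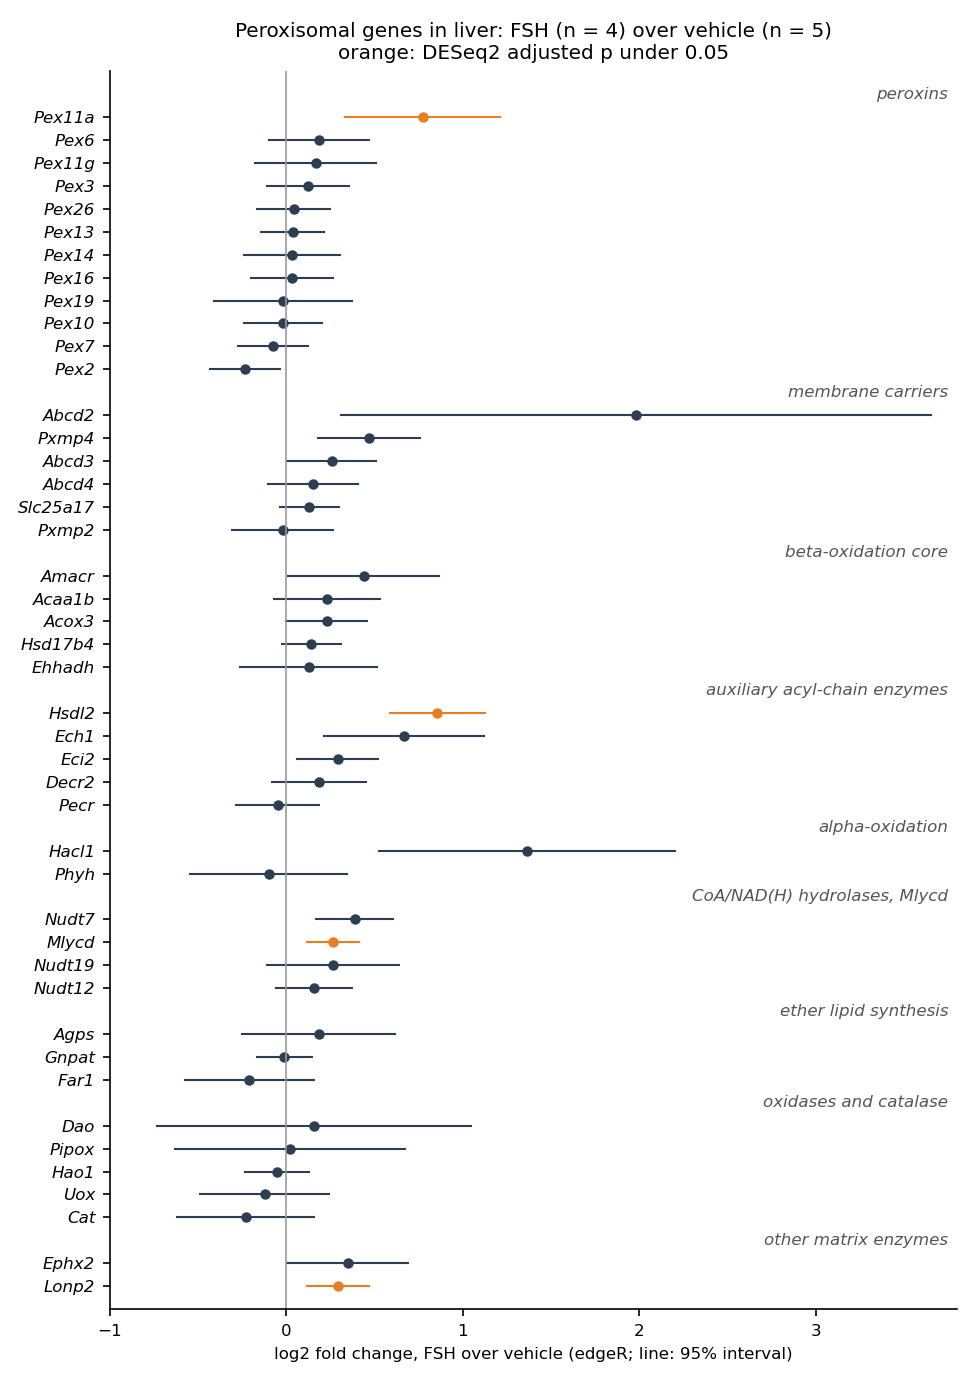
Log2 fold change, FSH (n = 4) over vehicle (n = 5), of the 44 peroxisomal genes, in blocks by role; points are edgeR estimates, lines their 95% intervals, and orange marks the 4 genes with a DESeq2 adjusted p under 0.05. The points right of 0 number 32, and 13 of those intervals stay above 0; Abcd2 has the widest interval, 0.31 to 3.65.

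Sequences upstream of the 4 genes called by DESeq2 are shown because these are the members of the set that any test called. They are RefSeq promoters of the build GRCr8, from 250 bases before to 50 bases after the gene start, written 5′ to 3′ on the gene's own strand; the counts rest on another build, rn6, so the coordinates belong to the sequences alone. Capitals mark GC boxes (GGGCGG on either strand) and CCAAT boxes (CCAAT on either strand), which can overlap each other. The Hsdl2 promoter lies at chr5:79238631-79238930 on the plus strand, that of Pex11a at chr1:143096442-143096741 on the minus strand, that of Mlycd at chr19:64356332-64356631 on the plus strand and that of Lonp2 at chr19:36672193-36672492 on the minus strand.
Hsdl2: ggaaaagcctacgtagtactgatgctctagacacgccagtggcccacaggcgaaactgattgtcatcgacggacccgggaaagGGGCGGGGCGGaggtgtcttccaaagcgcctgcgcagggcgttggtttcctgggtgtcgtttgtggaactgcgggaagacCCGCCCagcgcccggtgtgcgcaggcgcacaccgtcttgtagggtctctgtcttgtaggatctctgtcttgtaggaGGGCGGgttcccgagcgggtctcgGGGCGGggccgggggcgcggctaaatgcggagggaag
Pex11a: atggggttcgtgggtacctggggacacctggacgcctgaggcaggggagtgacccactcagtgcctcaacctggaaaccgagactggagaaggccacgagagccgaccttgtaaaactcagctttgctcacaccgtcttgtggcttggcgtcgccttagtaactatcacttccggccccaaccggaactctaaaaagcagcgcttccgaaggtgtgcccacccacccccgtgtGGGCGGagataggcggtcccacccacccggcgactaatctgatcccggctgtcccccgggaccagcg
Mlycd: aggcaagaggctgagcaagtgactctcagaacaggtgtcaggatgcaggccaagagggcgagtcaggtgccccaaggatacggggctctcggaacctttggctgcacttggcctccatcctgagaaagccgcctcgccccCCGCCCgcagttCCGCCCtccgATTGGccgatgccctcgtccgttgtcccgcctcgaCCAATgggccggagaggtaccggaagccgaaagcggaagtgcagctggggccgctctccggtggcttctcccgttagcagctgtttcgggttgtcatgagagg
Lonp2: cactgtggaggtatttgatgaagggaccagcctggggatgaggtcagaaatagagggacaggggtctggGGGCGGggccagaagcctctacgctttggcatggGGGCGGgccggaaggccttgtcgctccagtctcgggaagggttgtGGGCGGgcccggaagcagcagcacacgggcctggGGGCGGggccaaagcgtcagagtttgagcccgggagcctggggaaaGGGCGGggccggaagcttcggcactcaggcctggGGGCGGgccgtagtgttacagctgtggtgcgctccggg
The Lonp2 window held 6 GC boxes, that of Hsdl2 5, that of Mlycd 2 and that of Pex11a 1, and only that of Mlycd held CCAAT boxes, 2 of them. Promoters were at hand for 43 of the 47 listed genes. A GC box was found in 74.4% of those 43 and in 62.0% of 8978 promoters of genes tested here, 1 for each gene. For the CCAAT box the shares were 41.9% and 37.9%, and for the TATA box (TATAAA on either strand) 4.7% and 6.7%. A direct repeat of AGGTCA with 1 base between the half-sites (DR1), the kind of element that PPAR-alpha binds together with RXR, was also sought on both strands. No promoter of the 43 held it exactly or with 1 mismatch, against 0.04% and 0.48% of the promoters of genes tested. With up to 2 mismatches in the 12 fixed bases it was found in 2 of the 43 (4.65%) and in 2.95% of the promoters of genes tested, at AGACCAAAGGTCA in Amacr and AGGTCAGAGAGCA in Cat. A match in these windows describes letters only. At shares of 0.04% and 0.48%, finding none among 43 promoters says nothing about these genes, and sequence outside the windows was not searched.

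Among the 12 peroxins, Pex11a had by far the highest fold change. Pex11a (ENSRNOG00000015003), which drives elongation and division of peroxisomes, had 21.0, 43.4, 23.1 and 29.9 CPM (counts per 1e6 counts of the scaled library) in the FSH livers, against 17.02, 14.1, 16.2, 18.5 and 20.04 CPM in the vehicle livers. All 4 FSH values lay above the highest vehicle value, the lowest of them by a small margin, and FSH replicate 2 was well above the rest. The means were 29.3 ± 10.1 CPM with FSH (SD, n = 4) and 17.2 ± 2.27 CPM with vehicle (SD, n = 5), which is 0.77 on the log2 scale (SE 0.20; adjusted p = 0.219 in edgeR, DESeq2 adjusted p = 0.0254). Without FSH replicate 2 the fold change was 0.52.

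The other 11 peroxins had log2 fold changes between −0.23 and 0.19, with a median of 0.03 and edgeR adjusted p-values from 0.372 upward. Their 95% intervals reached from −0.43 at the lowest to 0.51 at the highest, so larger changes of these transcripts lay outside the intervals. They cover the import receptor Pex7 (−0.08), the docking proteins Pex13 (0.04) and Pex14 (0.03), the ubiquitin ligases Pex2 (−0.23) and Pex10 (−0.02), the ATPase Pex6 (0.19) with its membrane anchor Pex26 (0.04), and the membrane assembly factors Pex3 (0.12), Pex16 (0.03) and Pex19 (−0.02). Pex11g, a relative of Pex11a, had 0.17. Pex2 supplied the single unadjusted p under 0.05 on the lower side among the 44 genes. It stood at 16.9, 18.1, 17.5 and 21.0 CPM with FSH, against 22.7, 19.6, 24.1, 20.6 and 20.9 CPM with vehicle. Of the FSH values, 3 lay below all 5 vehicle values and that of replicate 4 lay within their range (edgeR adjusted p = 0.372). Pex19 rested on 22 to 37 reads per library, the fewest of any peroxin.

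Among membrane carriers 5 of 6 had a higher fold change, with a median of 0.20, and 3 had an unadjusted p under 0.05. Pxmp4 (ENSRNOG00000016975), a peroxisomal membrane protein, had 72.8, 51.7, 56.2 and 64.4 CPM with FSH, against 44.4, 44.9, 52.6, 34.2 and 45.6 CPM with vehicle. The groups overlapped only where FSH replicate 2 was just below vehicle replicate 3, and the log2 fold change was 0.47 (SE 0.13; adjusted p = 0.252 in edgeR). Abcd2 (ENSRNOG00000015538), an importer of very-long-chain and polyunsaturated fatty acyl-CoA, had 15.9, 9.05, 4.36 and 0.735 CPM with FSH, against 0.419, 4.36, 1.41, 0.789 and 2.39 CPM with vehicle. It was the most variable of the 44 genes in both groups, with a coefficient of variation of 87.2% with FSH and 84.1% with vehicle. FSH replicate 4 lay among the lowest vehicle livers while FSH replicates 1 and 2 lay above all of them. FSH replicate 3 was level with vehicle replicate 2, the highest vehicle liver. The log2 fold change of Abcd2, 1.98 (SE 0.75, edgeR adjusted p = 0.369), was 1.31 without FSH replicate 1. Abcd3, the abundant carrier of long-chain and branched acyl groups and of bile acid precursors, had 328, 293, 286 and 275 CPM with FSH, against 304, 248, 215, 212 and 257 CPM with vehicle (fold change 0.26 on the log2 scale, SE 0.11, edgeR adjusted p = 0.422). Only vehicle replicate 1 reached into the range of the FSH livers. Slc25a17, which exchanges CoA and other cofactors, had 0.13, Pxmp2, a channel for small solutes, −0.02, and Abcd4, whose product is known in human cells mainly as a lysosomal cobalamin transporter, 0.15.

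**Figure D2:**
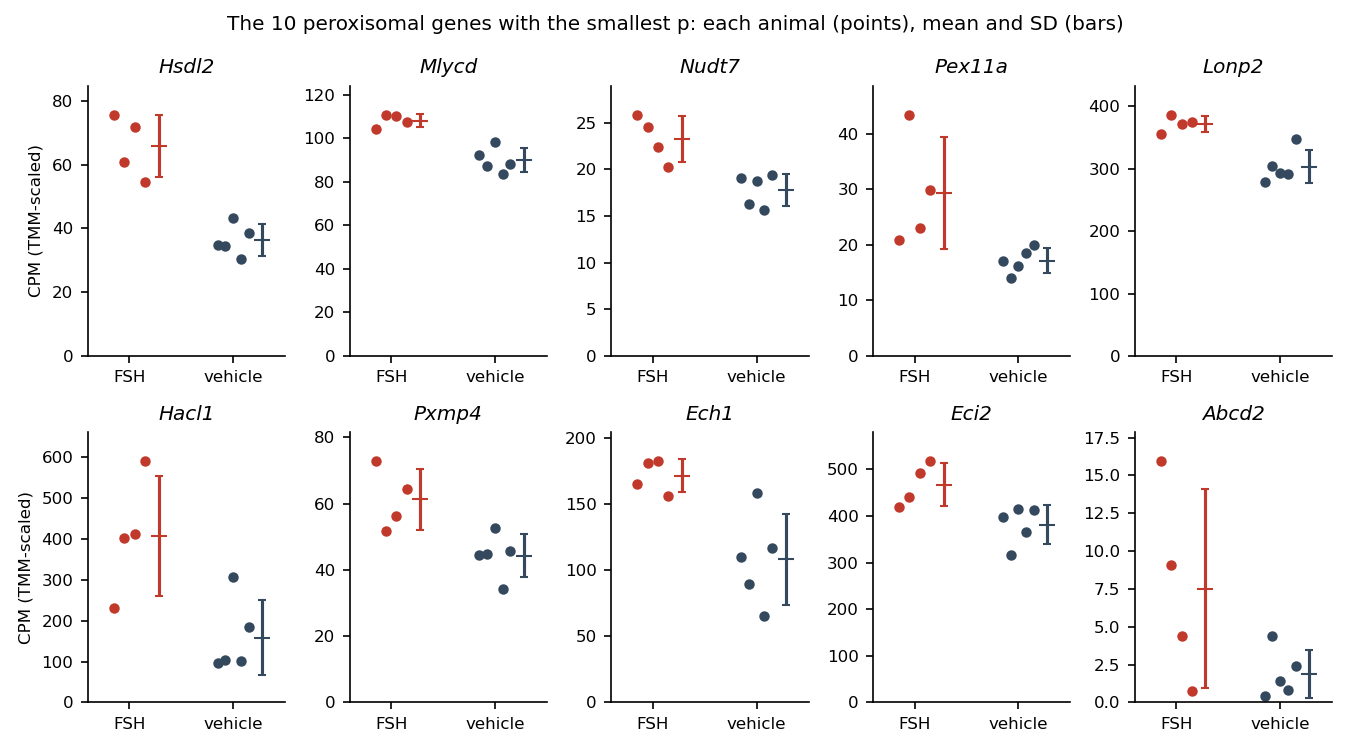
CPM of the 10 peroxisomal genes with the smallest p-values in each FSH (n = 4, red, left) and vehicle (n = 5, dark, right) liver; points are animals, bars the mean and SD. Each vertical axis starts at 0. Hsdl2 spans 54.7 to 75.7 CPM with FSH and 30.3 to 43.4 CPM with vehicle, while Hacl1 and Abcd2 overlap between the groups.

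The 5 measured members of the set that belong to the beta-oxidation spiral had higher fold changes, 0.13 to 0.44. Acox2, another oxidase of the spiral that is outside the set, averaged 386 ± 81.7 CPM with FSH (SD, n = 4) and 526 ± 84.2 CPM with vehicle (SD, n = 5), a log2 fold change of −0.45 (edgeR unadjusted p = 0.0201, adjusted p = 0.353). Hsd17b4 (ENSRNOG00000015840), the bifunctional enzyme for branched and very-long chains, had 508, 515, 499 and 493 CPM with FSH, against 463, 428, 488, 417 and 487 CPM with vehicle. The groups did not overlap, yet the gap between them was small, with means of 504 ± 9.46 CPM (SD, n = 4) and 457 ± 32.9 CPM (SD, n = 5) and a log2 fold change of 0.14 (SE 0.08; adjusted p = 0.508 in edgeR). Amacr (ENSRNOG00000018662), the racemase that readies branched acyl groups for oxidation, had 394, 307, 512 and 498 CPM with FSH, against 329.6, 229.7, 411, 258 and 349.5 CPM with vehicle. FSH replicates 1 and 2 lay inside the vehicle range, and the log2 fold change of 0.44 had an SE of 0.19 (edgeR adjusted p = 0.422). Ehhadh, the other bifunctional enzyme and a well-known PPAR-alpha target, had 502, 429, 497 and 537 CPM with FSH, against 569, 405, 486, 284 and 505 CPM with vehicle. The FSH values lay within the vehicle range, which was stretched by a low vehicle replicate 4 (fold change 0.13 on the log2 scale, SE 0.17, edgeR adjusted p = 0.826). The oxidase Acox3 had 0.23 (SE 0.10) and the thiolase Acaa1b 0.23 (SE 0.13). Acaa1b has a near-identical partner in Acaa1a, and the counting may have split reads common to both, so its level is uncertain.

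The auxiliary enzymes, which handle double bonds and other features of acyl chains, held the gene nearest to the threshold. Hsdl2 (ENSRNOG00000016692), a peroxisomal dehydrogenase-like protein with a sterol-carrier domain, had 75.7, 61.0, 71.9 and 54.7 CPM with FSH, against 34.9, 34.6, 43.4, 30.3 and 38.5 CPM with vehicle. Every FSH liver was above every vehicle liver, and the spread within each group was small beside the distance between them. Its means of 65.8 ± 9.68 CPM with FSH (SD, n = 4) and 36.4 ± 4.90 CPM with vehicle (SD, n = 5) gave a log2 fold change of 0.86 (SE 0.12, 95% interval 0.58 to 1.13). It missed the threshold in edgeR (adjusted p = 0.0515) and passed in DESeq2 (adjusted p = 1.11e-06). When each animal was left out in turn the fold change lay between 0.78 and 0.94, with edgeR adjusted p-values of 0.0537 to 0.207.

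Ech1 (ENSRNOG00000020308), a dienoyl-CoA isomerase of peroxisomes and mitochondria, had 165, 181, 182 and 156 CPM with FSH, against 109.8, 89.2, 158, 65.6 and 117 CPM with vehicle. The FSH livers lay close together and the vehicle livers did not, with coefficients of variation of 7.30% and 32.0%, and only vehicle replicate 3 reached the FSH range. The log2 fold change was 0.66 (SE 0.20; adjusted p = 0.292 in edgeR). Eci2 (ENSRNOG00000029549), an enoyl-CoA isomerase, had 419, 441, 493 and 517 CPM with FSH, against 397, 315, 416, 367 and 413 CPM with vehicle. The lowest FSH liver and the highest vehicle liver were almost level (fold change 0.29 on the log2 scale, SE 0.10, edgeR adjusted p = 0.350). The reductases Decr2 and Pecr had 0.18 (SE 0.12) and −0.05 (SE 0.11).

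Alpha-oxidation, which removes a single carbon from phytanic acid and from hydroxylated fatty acids, has a pair of genes here, with fold changes of opposite sign; the difference between them was not tested. Hacl1 (ENSRNOG00000019630), the lyase that cleaves the hydroxylated acyl-CoA, had 230.4, 402, 411 and 590.3 CPM with FSH, against 96.1, 103, 308, 101 and 185 CPM with vehicle. Most FSH livers were far above most vehicle livers, but vehicle replicate 3 exceeded FSH replicate 1, so the groups overlapped. The means were 409 ± 147 CPM (SD, n = 4) and 159 ± 91.5 CPM (SD, n = 5), and the log2 fold change of 1.36 (SE 0.38, 95% interval 0.52 to 2.20) had an edgeR adjusted p of 0.250 and a DESeq2 adjusted p of 0.148. Without vehicle replicate 3 it was 1.75 (edgeR adjusted p = 0.0975). Phyh, the hydroxylase that acts before it, had 712, 1082, 888 and 1219.7 CPM with FSH, against 1081, 1061, 1452, 805 and 829 CPM with vehicle, and the groups overlapped, with FSH replicate 1 below and vehicle replicate 3 above all livers of the other group (fold change −0.10 on the log2 scale, SE 0.20, edgeR adjusted p = 0.887). The same animals stood highest for both genes, replicate 4 in the FSH group and replicate 3 in the vehicle group, and FSH replicate 1 was the lowest of the FSH livers for both.

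The hydrolases of CoA and nicotinamide nucleotides and malonyl-CoA decarboxylase had 4 of 4 higher fold changes, with a median of 0.26. Nudt7 (ENSRNOG00000011976), a peroxisomal CoA diphosphatase, had 25.8, 24.5, 22.4 and 20.2 CPM with FSH, against 19.0, 16.2, 18.7, 15.6 and 19.4 CPM with vehicle. The groups did not overlap, and the log2 fold change was 0.39 (SE 0.10; adjusted p = 0.219 in edgeR, DESeq2 adjusted p = 0.0527). Mlycd (ENSRNOG00000014522), which removes malonyl-CoA, the inhibitor of carnitine palmitoyltransferase, had 104, 111, 110.3 and 108 CPM with FSH, against 92.6, 87.4, 98.4, 83.8 and 88.1 CPM with vehicle. The difference was small, and the groups did not overlap. The means of 108 ± 3.05 CPM (SD, n = 4) and 90.0 ± 5.61 CPM (SD, n = 5) gave a log2 fold change of 0.27 (SE 0.07; adjusted p = 0.219 in edgeR, DESeq2 adjusted p = 0.0183). The protein also works in mitochondria and cytosol. Nudt19, another CoA diphosphatase, had 0.26 (SE 0.17), and Nudt12, an NADH diphosphatase, 0.16 (SE 0.10).

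Lonp2 and Ephx2 were the remaining matrix enzymes. Lonp2 (ENSRNOG00000015162), the peroxisomal protease that removes damaged and processed matrix proteins, had 356, 386, 371 and 374 CPM with FSH, against 279, 305, 293, 292 and 347 CPM with vehicle. All FSH livers were higher, with vehicle replicate 5 closest to them. The means were 372 ± 12.5 CPM (SD, n = 4) and 303 ± 26.1 CPM (SD, n = 5), a log2 fold change of 0.29 (SE 0.08; adjusted p = 0.236 in edgeR, DESeq2 adjusted p = 0.0234). Ephx2, a soluble epoxide hydrolase shared with the cytosol, had 91.2, 72.8, 48.6 and 84.5 CPM with FSH, against 60.2, 55.3, 60.5, 53.2 and 62.6 CPM with vehicle. Its FSH values straddled the vehicle range, 3 above and replicate 3 below it (fold change 0.35 on the log2 scale, SE 0.16, edgeR adjusted p = 0.428).

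The oxidases and catalase had a median log2 fold change of −0.05, with 2 of 5 higher and none at an unadjusted p under 0.05. Cat (ENSRNOG00000008364), catalase, had 2029.8, 1904, 1962 and 2424 CPM with FSH, against 2461, 1937, 2088, 2163 and 3551 CPM with vehicle. Vehicle replicate 5 stood above all other livers; with it the log2 fold change was −0.23 (SE 0.17; adjusted p = 0.658 in edgeR) and without it −0.06. Uox, urate oxidase, had −0.12 (95% interval −0.49 to 0.24), and Hao1, the glycolate oxidase, −0.05 (−0.23 to 0.13). Pipox, which oxidises pipecolate and sarcosine, and Dao, the oxidase of D-amino acids, had 0.02 and 0.16, with wide intervals of −0.63 to 0.67 and −0.73 to 1.05. Their coefficients of variation were 37.5% with FSH and 36.9% with vehicle for Pipox, and 48.6% and 57.0% for Dao.

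Ether lipid genes had 1 of 3 higher. Gnpat, the acyltransferase that opens plasmalogen synthesis, had 20.4, 20.1, 19.1 and 21.4 CPM with FSH, against 22.5, 20.2, 20.5, 19.0 and 19.8 CPM with vehicle. The groups coincided, and the log2 fold change of −0.01 had a 95% interval of −0.17 to 0.15. Far1 (ENSRNOG00000013176), which supplies the fatty alcohol, had 1.83, 2.39, 2.24 and 2.03 CPM with FSH, against 2.25, 1.84, 2.72, 2.76 and 2.71 CPM with vehicle (fold change −0.21 on the log2 scale, SE 0.16, edgeR adjusted p = 0.672). Its groups overlapped, and the counts were low, at 43 to 77 reads per library. Agps, the synthase that installs the ether bond, rested on 21 to 46 reads and had 0.18 (SE 0.20).

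**Figure D3:**
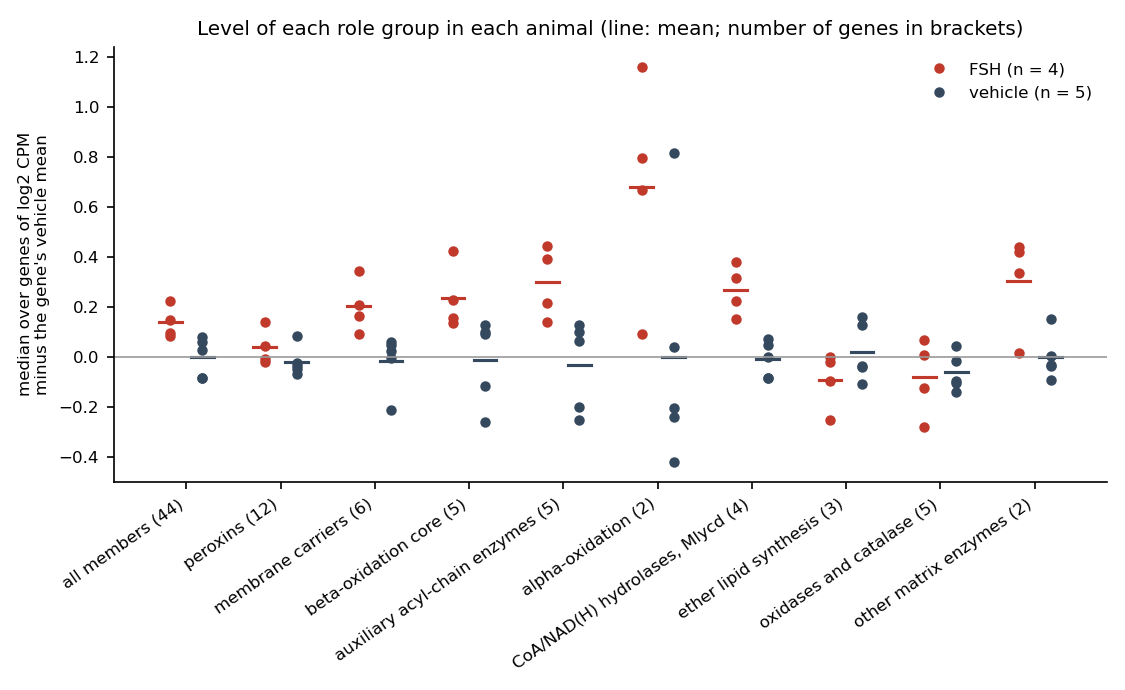
Level of each role group in each liver: the median over its genes of log2 CPM minus the gene's vehicle mean (prior count 2), for FSH (n = 4, red, left) and vehicle (n = 5, dark, right); lines are means and the number of genes is in brackets. Over all 44 genes the 4 FSH livers lie between 0.08 and 0.23 and the 5 vehicle livers between −0.08 and 0.08.

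Across animals, the median level of the 44 genes relative to the vehicle mean was 0.15, 0.08, 0.10 and 0.23 (log2) in FSH replicates 1 to 4 and 0.06, −0.08, 0.08, −0.08 and 0.03 in vehicle replicates 1 to 5. The lowest FSH liver and the highest vehicle liver lay side by side. The groups did not overlap for the membrane carriers (0.09 to 0.34 with FSH, −0.21 to 0.06 with vehicle) and for the hydrolases with malonyl-CoA decarboxylase (0.15 to 0.38 with FSH, −0.08 to 0.07 with vehicle). Nor did they for the auxiliary enzymes (0.14 to 0.45 with FSH, −0.25 to 0.13 with vehicle) and the beta-oxidation core (0.14 to 0.43 with FSH, −0.26 to 0.13 with vehicle). In these last role groups the lowest FSH liver and the highest vehicle liver were almost level (0.142 against 0.130, and 0.138 against 0.129). The groups overlapped in the other 5 role groups, among them the peroxins (−0.02 to 0.14 with FSH, −0.07 to 0.08 with vehicle). How often groups of other genes fail to overlap was not counted. Differences between the role groups were not tested. Vehicle replicate 4 was the lowest of all 9 livers for 13 of the 44 genes, and FSH replicates 4 and 1 were the highest for 10 and 9. FSH replicate 1 was also the lowest for 7. Within a group the median coefficient of variation over the 44 genes was 11.7% with FSH and 12.6% with vehicle.

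**Figure D4:**
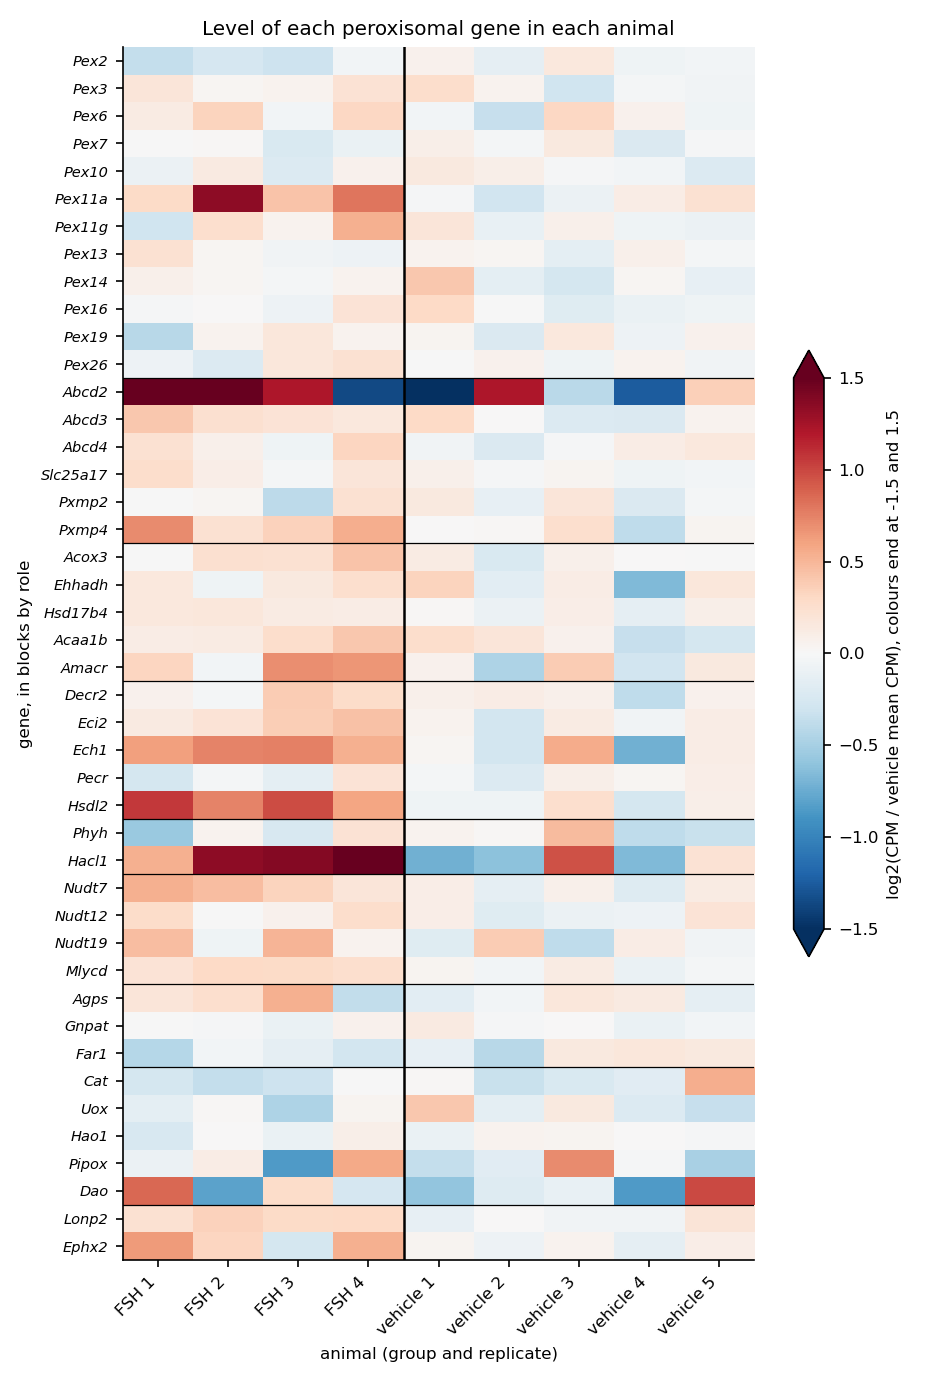
Heat map of log2(CPM over the vehicle mean CPM) for the 44 peroxisomal genes (rows, in blocks by role) in each liver (columns, FSH left of the black line, vehicle right of it); colours end at −1.5 and 1.5. Pex11a, Hsdl2 and Lonp2 are above 0 in all 4 FSH livers, while Abcd2 and Hacl1 vary widely inside both groups.

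Other peroxisomal genes outside the set were read from a second list of 36, of which 31 were tested. Of these, 2 passed in edgeR and were higher, Crat, a carnitine acetyltransferase, and Acot4, an acyl-CoA thioesterase (log2 fold changes 1.57 and 1.00, edgeR adjusted p = 0.0145 for both), 0 were lower, 18 had a higher fold change, and the median was 0.05. DESeq2 called 4 of them, all higher, adding Acot3 (0.72, DESeq2 adjusted p = 0.00199), an acyl-CoA thioesterase with close relatives that may share its reads, and Acad11 (0.39, DESeq2 adjusted p = 0.0417), an acyl-CoA dehydrogenase. PPAR-alpha and its known targets outside the peroxisome had 30 tested of 36 listed. In edgeR 1 passed, Cpt1a, the carnitine palmitoyltransferase of mitochondrial entry (1.31, edgeR adjusted p = 0.0337), 26 had a higher fold change, and the median was 0.35. DESeq2 called 13 of those 30, all higher. Ppara itself had 0.38 (edgeR adjusted p = 0.607), and the known targets Cyp4a1 and Fabp1 had 0.04 and −0.01 (edgeR adjusted p = 0.972 and 0.982). Over all genes tested, 50.5% had a fold change above 0 and 0.0335% passed in edgeR. DESeq2 called 1.54% of all genes, 0.964% higher. Both lists were also drawn up with earlier results known.

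Library totals were 23430807 to 27008941 counts with FSH and 19295580 to 28672439 counts with vehicle, and a single read was worth 0.0353 to 0.0532 CPM. Hepatocyte markers were abundant in all livers, with Alb at 10.5 to 19.4% of counts, the highest share in FSH replicate 1; their summed level was 163100 to 270300 CPM with FSH and 187600 to 233200 CPM with vehicle (2 of 7 genes higher). Liver endothelial markers summed to 200.6 to 260.9 CPM with FSH and 169.9 to 225.8 CPM with vehicle (6 of 7 tested genes higher, 4 at an unadjusted p under 0.05), stellate and fibroblast markers to 145.5 to 181.5 CPM and 193.8 to 258.4 CPM (1 of 7 higher, 2 lower at that p), and erythroid genes to 118.8 to 485.1 CPM and 73.0 to 154.5 CPM (3 of 3 higher, 1 at that p). Kupffer cell and macrophage markers stood at 325.3 to 483.4 CPM with FSH and 176.4 to 538.5 CPM with vehicle (3 of 7 higher), cholangiocyte markers at 9.33 to 17.7 CPM and 11.9 to 20.7 CPM (2 of 5), neutrophil markers at 1.19 to 3.11 CPM and 0.792 to 2.96 CPM (3 of 3), and lymphocyte markers at 1.79 to 2.85 CPM and 1.62 to 3.91 CPM (2 of 3). No marker in the table was at 0 in every library and none passed an FDR of 0.05 in edgeR; DESeq2 called 1 endothelial and 1 erythroid gene higher and 1 stellate gene lower. What these shifts contribute to the peroxisomal genes was not tested, and in bulk tissue fewer cells of a type and less RNA per cell cannot be told apart.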

How the data were processed

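Polyadenylated RNA of snap-frozen liver from individual rats was sequenced as stranded paired-end libraries, per the labels' protocols. The values are raw read counts for each gene, whole numbers, as deposited. STAR, edgeR, DESeq2 and the build rn6 are named, without versions or roles, per the submitters' processing notes. Annotation and strand setting: not given in the sources used here; reads of overlapping or antisense genes therefore cannot be told apart.

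FSH (4) and vehicle (5) counts were tested with edgeR 4.0.16 under R 4.3.3. The test was the quasi-likelihood F-test (2-sided), with TMM scaling, edgeR's own low-count filter and Benjamini-Hochberg adjustment over 11924 genes at an FDR of 0.05. The genes kept hold 99.96% of counts. Standard errors and 95% intervals were derived from the fold change, the F statistic and its degrees of freedom. CPM are counts per 1e6 of the scaled library. The procedure was tested on simulated data.

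The genes, roles, lists and tests were chosen with earlier results of these data known. Values per animal are given for the 10 genes with the smallest p, the smallest p in each role, those whose groups do not overlap, and, chosen after their values were seen, Pex2, Abcd3, Ehhadh, Phyh, Ephx2 and Gnpat. From the 2 further lists the genes past the threshold are named. Acot3, Acad11, Acox2, Ppara, Cyp4a1 and Fabp1 were added after their values were seen. Alternatives were DESeq2 1.42.0, limma-voom (limma 3.58.1), other scalings and filters, a replicate block, 1 surrogate variable (sva 3.50.0), an FDR of 0.10 and leaving out each animal. A planned description of targeting signals in the proteins was not made.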

Additional observations from a re-analysis of the deposited data

Results flagged for a closer look

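For the CPM of the 14 genes named by rule and the level of each role group, 48 sets of values in all, the extreme animals of a group were compared with the rest of it. In 1 set an animal stood apart, where chance, at 1 in 20, would flag about 2 of the 48. The membrane carriers in vehicle replicate 4 were lowest at −0.211 (median log2 CPM relative to the vehicle mean), with the nearest vehicle liver at −0.00164.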

How the results depend on the processing

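The number of the 44 genes past the threshold was 0 under every alternative run except DESeq2 (4, all higher) and an FDR of 0.10 (1, Hsdl2). Over all genes, 4 passed; DESeq2 called 184, 1 surrogate variable left 2, an FDR of 0.10 gave 12, and leaving out 1 animal gave 0 to 4. The causes were not tested. Genes of the 44 whose groups do not overlap numbered 5 under library totals alone. They numbered 7 to 11 on leaving out an animal, the highest without FSH replicate 4. Every such run has fewer samples, which makes separation easier. Why the count was highest without FSH replicate 4 was not tested. Those at an unadjusted p under 0.05 numbered 10 to 13 on leaving out an animal and 12 to 15 under the other alternatives. The share of all genes meeting either criterion was not counted under these alternatives, so these counts cannot be set against it. Genes with a higher fold change numbered 29 to 35 of 44, and the median log2 fold change of all 44 lay between 0.11 and 0.18. Of the 14 genes named by rule, 0 changed sign in any alternative. Leaving out 1 animal moved Abcd2 and Cat by over 1.5 times, and with the replicate block Cat stood at −0.06. The labels do not say whether replicate numbers pair the animals. Correlations of same-numbered deviations were −0.04 to 0.04, which shows no sign of pairing but cannot exclude that animals were matched. With the replicate block 13 of the 44 genes had an unadjusted p under 0.05, 0 passed the threshold, and 5 of all genes did. Depth limits Pex19, Agps, Far1 and Abcd2, whose lowest library held 22, 21, 43 and 8 reads.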
